A study of Mus musculus with 4 samples.

Results

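The enzymes described here make NAD, convert it to NADP, or break it down, and were followed across 4 mouse hearts. The members were 10 genes named for these reactions, and every probe set paired with exactly 1 symbol that is a member was taken. Nampt, Nmnat1, Nmnat3 and Nmrk2 formed the salvage route, Qprt the kynurenine route, Nadk2 and Nnt the NADP and transhydrogenase group, and Parp1, Parp2 and Cd38 the consuming route. The annotation used here paired 22 of the 45037 probe sets tested with 9 of these genes, and no probe set was paired with Cd38. The salvage route held 8 of the 22 probe sets, the kynurenine route 2, the NADP group 7 and the consuming route 5.

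The series addressed how Sirt1, a deacetylase that uses NAD as its substrate, affects expression in the heart. Total heart RNA was measured on 4 Affymetrix expression arrays, which the labels assign to 4 mice. The arrays labelled wild type are called NTg 1 and NTg 2 (n = 2), and those labelled as carrying a Sirt1 transgene Tg-Sirt1 1 and Tg-Sirt1 2 (n = 2). Pentobarbital at 120 mg/kg was used to kill all of them. No source used here states the strain, age, sex, transgenic line or transgene promoter.

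One array of each label, NTg 1 and Tg-Sirt1 1, held near-identical values, which limits every comparison between the labels. Across 45037 probe sets their values differed with an SD of 0.0759 log2 units and by at most 0.48. In the other 5 pairs of arrays that SD was 0.342 to 0.405. Whether they are 2 mice or 1 hybridisation under 2 labels was not tested, so each n of 2 is that of the labels. Sirt1 itself read 7.30 on NTg 1, 7.17 on NTg 2, 7.16 on Tg-Sirt1 1 and 7.93 on Tg-Sirt1 2. The library labelled Tg-Sirt1 1 was thus not above the NTg arrays in the gene its label names, and every direction between the labels includes it. No array was moved to another group, and each result is also given by array. The heart muscle genes Myh6, Tnnt2, Tnni3, Actc1, Myl2, Myl3, Ryr2 and Pln read 12.24 or more on all 4 arrays, as heart tissue should. The control signal at the 3' end minus that at the 5' end, where a larger value goes with less 5' RNA, was largest on Tg-Sirt1 2. It was 1.92 there for Actb and 1.22 to 1.44 on the other arrays, and 1.34 against 0.18 to 0.69 for Gapdh.

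NAD carries electrons in respiration and fatty acid oxidation, and it is also a substrate that sirtuins, poly-ADP-ribose polymerases and CD38 cleave to nicotinamide. Heart muscle rebuilds most of its NAD by salvage. In that route Nampt, which is rate-limiting, joins nicotinamide to phosphoribosyl pyrophosphate, and the Nmnat enzymes adenylate the product. Nmrk2 feeds the same route from nicotinamide riboside, while Qprt serves synthesis from tryptophan, which is mainly a task of the liver.

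Promoter sequence was at hand from RefSeq (GRCm38.p6) for 8 of the 10 members, in 9 promoters. The 250 bases before the start were searched on both strands for the clock factor E-box CACGTG, which reads the same on both strands. It was present in the promoters of Parp1 and Parp2 and in 6.02% of the 32851 promoters in the table. It lay 49 bases before the start in Parp1 and 179 bases before it in Parp2. None of the other 7 member promoters held these letters in this window, that of the clock output gene Nampt included. The GC-box GGGCGG, or CCGCCC on the other strand, was added after the sequences had been read. It was present in 7 of the 9 member promoters and in 32.7% of all promoters. The 2 Nmnat1 promoters overlap and share their GC-box, so by gene the count was 6 of 8. Nampt had 5 copies, Parp1 3 and Parp2 1. The GC content of member promoters ran from 45.6% in Nmnat3 to 75.6% in Nampt, beside a median of 52.4% for all promoters. Only Nmnat3 and Cd38 lay below that median. The part of GC content in the GC-box count was not tested. These matches describe letters and do not show a bound factor. The 3 sequences below are given because Nampt is the entry of the salvage route and because a Parp1 and the Parp2 probe set had like profiles. Capitals mark the E-box and the GC-boxes, and no E-box overlapped a GC-box. All 3 lie on the plus strand, at chr12:32820085-32820334 for Nampt, chr1:180568641-180568890 for Parp1 and chr14:50807666-50807915 for Parp2.
Nampt: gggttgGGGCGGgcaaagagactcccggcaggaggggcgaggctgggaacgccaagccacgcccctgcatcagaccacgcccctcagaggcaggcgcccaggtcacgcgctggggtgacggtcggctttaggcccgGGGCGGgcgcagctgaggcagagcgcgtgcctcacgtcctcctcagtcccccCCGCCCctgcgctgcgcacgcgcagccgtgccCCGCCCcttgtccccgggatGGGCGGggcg
Parp1: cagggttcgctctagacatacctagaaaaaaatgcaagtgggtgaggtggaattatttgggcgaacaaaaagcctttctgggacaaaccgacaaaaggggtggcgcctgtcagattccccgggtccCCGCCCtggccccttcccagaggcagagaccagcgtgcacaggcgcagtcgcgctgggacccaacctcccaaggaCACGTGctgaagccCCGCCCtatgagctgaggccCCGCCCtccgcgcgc
Parp2: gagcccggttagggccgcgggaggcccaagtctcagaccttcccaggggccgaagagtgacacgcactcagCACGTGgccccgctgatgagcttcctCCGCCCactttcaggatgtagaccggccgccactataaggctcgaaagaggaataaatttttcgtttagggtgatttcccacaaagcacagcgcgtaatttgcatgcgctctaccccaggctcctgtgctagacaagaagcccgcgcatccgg

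None of the member probe sets passed the test between the labels. Log2 fold changes, the Tg-Sirt1 mean minus the NTg mean, ran from -0.47 for a Nmnat1 probe set to 0.26 for Parp2. In limma with Benjamini-Hochberg adjustment over all probe sets, 0 of 22 passed an adjusted p of 0.05, against 0% of all 45037 probe sets. The lowest adjusted p of a member was 0.996, and 0 members had an unadjusted p under 0.05 (lowest 0.163). Of the 22, 15 had a higher and 7 a lower Tg-Sirt1 mean. Over the 9 genes, each by its brightest probe set, 5 were higher and 4 lower with a median of 0.10, beside 9653 higher and 8324 lower with a median of 0.01 among 18193 genes. Both Tg-Sirt1 arrays lay above both NTg arrays for 0 of 22 member probe sets, against 9.59% of all. Both lay below for 1, a Qprt probe set, against 11.4% of all. With 2 arrays against 2, the smallest two-sided p of an exact permutation test is 0.333, so these counts do not show that the hearts were alike. The limma test also had little room to pass any probe set, because the near-identical arrays carry different labels. In it, 28 of all 45037 probe sets had an unadjusted p under 0.05, where 2252 would be expected by chance. A count of 0 passing, here or for a gene list below, is therefore not a result about those genes. Whether the arrays come from separate litters or batches is not given, so p-values measure only the spread between these samples.

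**Figure D1:**
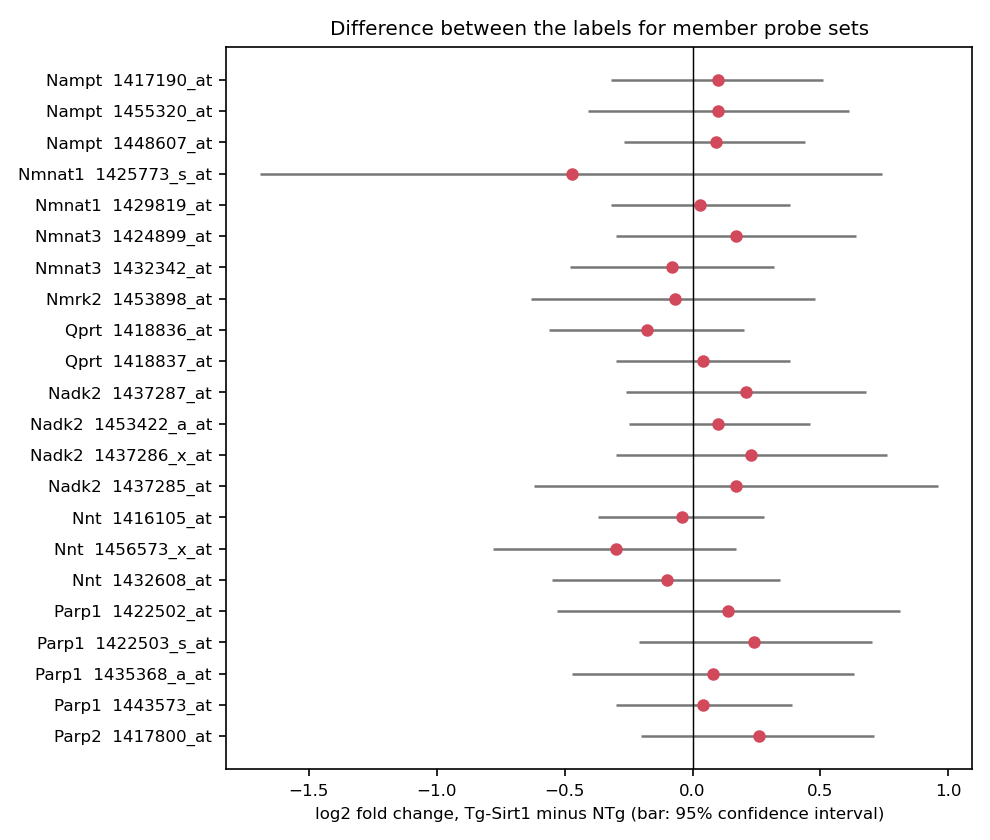
Log2 fold change (x axis, Tg-Sirt1 minus NTg) for each of the 22 member probe sets (rows), with its 95% confidence interval from limma as a bar. All 22 intervals include 0, and the point farthest from 0 is a Nmnat1 probe set at -0.47.

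Single arrays were then compared, within a label and across labels. The median range over the 4 arrays was 0.43 log2 units for member probe sets and 0.33 for all probe sets. NTg 2 and NTg 1 differed by over 0.5 at 3 of 22 member probe sets (13.6%), those of Nmnat1, Nmrk2 and Parp1, against 11.8% of all. Tg-Sirt1 2 and Tg-Sirt1 1 differed that far at 3 (13.6%), a Nmnat1 and 2 Nadk2 probe sets, against 9.45% of all. These 2 differences nearly share an array, because NTg 1 and Tg-Sirt1 1 were near-identical. Within that pair 0 of 22 members lay over 0.5 apart, against 0% of all. The other pairings gave 3 of 22 for Tg-Sirt1 2 against NTg 2 (15.4% of all), 3 for Tg-Sirt1 2 against NTg 1 (9.61%), and 1 for Tg-Sirt1 1 against NTg 2 (11.2%). Shares of 4.55% to 13.6% of the members thus stood near those of 9.45% to 15.4% of all probe sets, leaving the near-identical pair aside. After each array was centred on its median, 7 members (31.8%) differed that far between Tg-Sirt1 2 and NTg 2, against 16.2% of all, and 2 (9.09%) between Tg-Sirt1 1 and NTg 2, against 12.0% of all. Tg-Sirt1 2 alone had the highest value at 13 of the 22 member probe sets, and it did so at 30.1% of all. The 13 include several probe sets each of Nampt, Nadk2 and Parp1. By the brightest probe set of each gene, this held only for Nampt, Nmnat3, Nadk2 and Parp2. The part of the larger 3' minus 5' control signal of that array in these values was not tested.

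**Figure D2:**
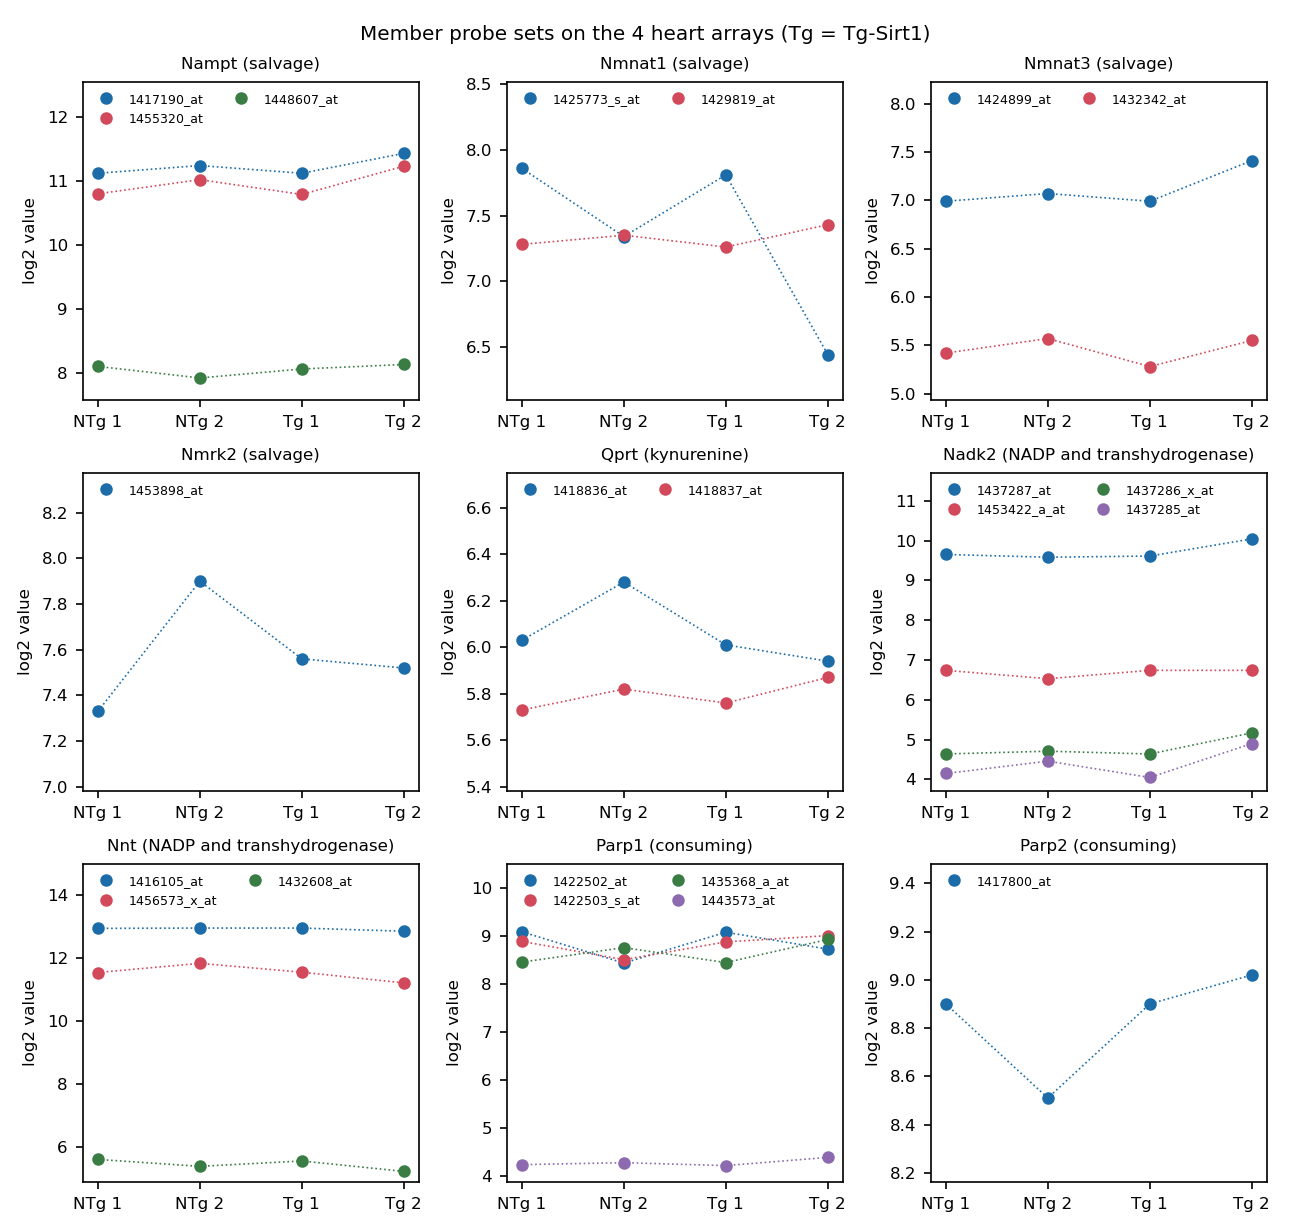
Log2 value (y axis, a separate scale in each panel) of every member probe set on the 4 arrays (x axis), with 1 panel for each of the 9 genes. NTg 1 and Tg-Sirt1 1 sit at nearly the same height in each panel except that of Nmrk2, and the widest spread is that of a Nmnat1 probe set, from 6.44 to 7.86.

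Nampt, the rate-limiting salvage enzyme, was bright on every array and had its highest value on Tg-Sirt1 2 at all 3 probe sets. Its brightest probe set, 1417190_at, read 11.12 on NTg 1, 11.24 on NTg 2, 11.12 on Tg-Sirt1 1 and 11.43 on Tg-Sirt1 2. Probe set 1455320_at read 10.80, 11.02, 10.79 and 11.23 in the same order. The labels overlapped at both, because Tg-Sirt1 1 was as low as NTg 1. The dimmer 1448607_at read 8.11, 7.93, 8.07 and 8.14 in the same order, so NTg 2 was the lowest array there and the second highest at the others. For 1417190_at the mean was 11.18 ± 0.08 (SD, n = 2) in NTg and 11.27 ± 0.22 (SD, n = 2) in Tg-Sirt1. The log2 fold change was 0.10 ± 0.16 (SE), with a 95% confidence interval from -0.32 to 0.51. Without Tg-Sirt1 2 it was -0.06.

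Nampt is known as an output of the circadian clock. Of 16 clock genes, 11 had a wider range over the arrays than the brightest Nampt probe set and 5 a narrower one, and the 3 of widest range are given here. Dbp, a clock output transcription factor, read 11.00 on NTg 1, 9.79 on NTg 2, 11.00 on Tg-Sirt1 1 and 11.18 on Tg-Sirt1 2. Nr1d1, the repressor REV-ERB alpha, read 9.57, 8.50, 9.55 and 8.93 in the same order. Per3 read 8.48, 7.64, 8.47 and 8.67. All 3 were lowest on NTg 2, where the brightest Nampt probe set was above that of NTg 1. Of the 16, 0 passed the test between the labels. On NTg 2, 12 were lower and 4 higher than on NTg 1, with a median difference of -0.14. Over all genes, 50.2% were lower there, with a median of -0.01. No source used here states the time of day at which the hearts were taken.

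Nmnat1, the nuclear adenylyltransferase of the route, had 2 probe sets that disagreed. Probe set 1425773_s_at read 7.86 on NTg 1, 7.34 on NTg 2, 7.81 on Tg-Sirt1 1 and 6.44 on Tg-Sirt1 2. Probe set 1429819_at read 7.28, 7.35, 7.26 and 7.43 in that order. The first was thus lowest on Tg-Sirt1 2 and the second highest there, so that no direction holds for the gene. The suffix _s_at marks a probe set whose probes match more than 1 transcript. For the first, the mean was 7.60 ± 0.37 (SD, n = 2) in NTg and 7.12 ± 0.97 (SD, n = 2) in Tg-Sirt1, and the log2 fold change was -0.47 ± 0.48 (SE). It was 0.21 without Tg-Sirt1 2. The second had a log2 fold change of 0.03 ± 0.14 (SE). The drop of the first by 1.37 log2 units from Tg-Sirt1 1 to Tg-Sirt1 2 was matched or passed by 0.97% of all probe sets. This was the largest such drop among the member probe sets and was singled out for it, so the share does not mark a rare event. Tg-Sirt1 2 was also the array with the largest 3' minus 5' control signal, and the part of this in the Nmnat1 value was not tested.

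The 3 genes closest to the first Nmnat1 probe set in profile, by Euclidean distance of centred log2 values over 4 arrays, were Mbd3, Apbb2 and Appbp2. Their distances were 0.04, 0.06 and 0.06 log2 units among 18192 genes compared. With only 4 arrays, and a near-identical pair among them, small distances are easily found in so large a search. They do not show a link of these genes to Nmnat1. Mbd3, a subunit of the NuRD chromatin complex, read 8.16, 7.65, 8.12 and 6.70 on NTg 1, NTg 2, Tg-Sirt1 1 and Tg-Sirt1 2. The adaptor gene Apbb2 read 10.26, 9.77, 10.26 and 8.92, but its next probe set read 9.12, 8.70, 9.09 and 9.10 and did not share the low value. Appbp2 read 9.16, 8.66, 9.15 and 7.82 at the matched probe set. A further Appbp2 probe set was highest on Tg-Sirt1 2, at 7.65 against 6.55 to 7.01. So were dimmer ones, at 6.78 against 6.4 to 6.73 and at 3.66 against 3.26 to 3.55. The remaining ones read 6.64 there, within the range of the other arrays, and 3.72, the lowest.

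Nmnat3, the mitochondrial adenylyltransferase, read highest on Tg-Sirt1 2 at its brighter probe set. Probe set 1424899_at read 6.99 on NTg 1, 7.07 on NTg 2, 6.99 on Tg-Sirt1 1 and 7.41 on Tg-Sirt1 2. Only Tg-Sirt1 2 stood above both NTg arrays. The log2 fold change was 0.17 ± 0.18 (SE), and -0.04 without Tg-Sirt1 2. The dim 1432342_at read 5.42, 5.57, 5.28 and 5.55 and had a log2 fold change of -0.08 ± 0.16 (SE), so the probe sets differed in sign.

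Nmrk2, the muscle nicotinamide riboside kinase, was highest on NTg 2. Its only probe set, 1453898_at, read 7.33 on NTg 1, 7.90 on NTg 2, 7.56 on Tg-Sirt1 1 and 7.52 on Tg-Sirt1 2. Both Tg-Sirt1 arrays fell between the NTg arrays. The mean was 7.62 ± 0.40 (SD, n = 2) in NTg and 7.54 ± 0.03 (SD, n = 2) in Tg-Sirt1, with a log2 fold change of -0.07 ± 0.22 (SE) that was 0.21 without NTg 2. The gap of 0.57 between the NTg arrays was matched or passed upward by 2.50% of all probe sets. It was singled out as the largest upward gap there among the member probe sets, so the share does not mark a rare event. Nmrk2 was also the member that differed most within the near-identical pair, by 0.23, a size that 1.23% of all probe sets reached there. The next member differed by 0.14 in that pair, and 19 of the 22 by at most 0.05, as did 61.6% of all.

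Nmrk2 is known to be raised in stressed heart and skeletal muscle, and several load genes were high on the same array. The skeletal actin gene Acta1 read 7.37 on NTg 1, 12.17 on NTg 2, 7.23 on Tg-Sirt1 1 and 6.46 on Tg-Sirt1 2. Myh7, the slow myosin heavy chain, read 11.65, 13.27, 11.64 and 10.89, and the natriuretic peptide gene Nppb 11.76, 12.46, 11.76 and 11.55. Nppa read 11.39, 11.88, 11.40 and 11.94, so it was high on Tg-Sirt1 2 as well. Of 8 load genes measured, 0 passed the test between the labels. On NTg 2, 5 were higher and 3 lower than on NTg 1, beside 50.2% lower over all genes. On NTg 2 the summed linear signal of the skeletal muscle markers, on the log2 scale, was 12.88 against 13.14 on NTg 1. Ckm carries this sum, at 12.79 on NTg 2 and 13.07 on NTg 1, and the other markers read at most 7.15 on any array. The lower sum is thus that of Ckm, which read 12.51 or more on every heart array. It is not read as an amount of skeletal muscle RNA. Of the 8 markers, 6 were higher on NTg 2 while Ckm and Myh2 were lower (4 and 4 after a second quantile normalization). The skeletal myosin genes Myh1, Myh2 and Myh4 read 4.17 to 6.19 on all arrays. The part of load or of skeletal muscle RNA in the Nmrk2 value was not tested.

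The kynurenine route had 1 member, Qprt, which turns quinolinate into nicotinic acid mononucleotide, and it was dim. Probe set 1418836_at read 6.03 on NTg 1, 6.28 on NTg 2, 6.01 on Tg-Sirt1 1 and 5.94 on Tg-Sirt1 2. Tg-Sirt1 1 lay only 0.02 below NTg 1, which is the whole gap between the labels. The log2 fold change was -0.18 ± 0.15 (SE), with a 95% confidence interval from -0.56 to 0.20, and was -0.06 without NTg 2 and -0.30 without NTg 1. Probe set 1418837_at read 5.73, 5.82, 5.76 and 5.87 and had a log2 fold change of 0.04 ± 0.13 (SE). Both probe sets lay between the 39.3th and 49.6th percentile of signal on every array, so whether Qprt was detected above background cannot be read from these values.

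Other genes of the tryptophan to NAD route were mostly dim as well. Tdo2, the liver enzyme that opens the tryptophan ring, read 4.90 to 5.08, Ido1 5.37 to 5.77 and Haao 5.83 to 6.04. The 3 brightest were Kyat3 and Kyat1, aminotransferases of the side branch to kynurenic acid, and Afmid, the formamidase of the main route. Kyat3 read 9.93 on NTg 1, 8.81 on NTg 2, 9.87 on Tg-Sirt1 1 and 9.79 on Tg-Sirt1 2, and was thus low on NTg 2 alone. Afmid read 7.55, 6.95, 7.49 and 7.31, also lowest there, whereas Aadat, another aminotransferase of the side branch, read 5.09 to 5.13. Of 10 such genes measured, 0 passed the test between the labels. On NTg 2, 5 were higher and 5 lower than on NTg 1, with a median difference of 0.07. Over all genes, 50.2% were lower there, with a median of -0.01. Of the liver markers, Alb read 6.47 to 6.67, Cyp2e1 8.38 to 8.48, Apoa1 6.30 to 6.62, Ttr 7.55 to 8.0 and Fabp1 4.89 to 5.45, the last highest on NTg 2. Their summed signal, which the brightest carry, was 9.58 to 9.65, and the part of liver RNA was not tested.

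Nadk2, the mitochondrial kinase that makes NADP from NAD, was highest on Tg-Sirt1 2 at 3 of 4 probe sets. The brightest, 1437287_at, read 9.65 on NTg 1, 9.58 on NTg 2, 9.61 on Tg-Sirt1 1 and 10.04 on Tg-Sirt1 2. The dim 1437285_at read 4.15, 4.46, 4.05 and 4.90, and 1437286_x_at 4.64, 4.71, 4.64 and 5.17. These 3 agreed in setting Tg-Sirt1 2 above the other arrays, whose values overlapped. The remaining 1453422_a_at read 6.74 on each array but NTg 2, where it read 6.53. The log2 fold change of the brightest was 0.21 ± 0.18 (SE), with a 95% confidence interval from -0.26 to 0.68, and was -0.01 without Tg-Sirt1 2. The rise of 0.85 at 1437285_at from Tg-Sirt1 1 to Tg-Sirt1 2 was matched or passed by 0.395% of all probe sets, though this probe set lay at or below the 21.6th percentile on every array. It was singled out as the largest such rise among the member probe sets, so the share does not mark a rare event.

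Nnt, the transhydrogenase of the inner mitochondrial membrane that makes NADPH from NADH, had the brightest probe set of the members and the steadiest. Probe set 1416105_at read 12.95 on NTg 1, 12.96 on NTg 2, 12.96 on Tg-Sirt1 1 and 12.86 on Tg-Sirt1 2, a range of 0.10. The _x_at probe set 1456573_x_at, of a kind that can bind other transcripts, read 11.55, 11.84, 11.56 and 11.22. A dim one, 1432608_at, read 5.62, 5.40, 5.57 and 5.24. All 3 were lowest on Tg-Sirt1 2, while NTg 2 was high at the second and low at the third. The log2 fold change was -0.04 ± 0.13 (SE) at the first, -0.30 ± 0.19 (SE) at the second and -0.10 ± 0.18 (SE) at the third. Some laboratory mouse substrains carry a deletion within Nnt. Where these probe sets lie relative to it was not determined, so the signal does not type the strain.

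Other genes that make NADP, or make or use mitochondrial NADPH, varied unequally. Nadk, the cytosolic NAD kinase, read 9.29 on NTg 1, 8.77 on NTg 2, 9.26 on Tg-Sirt1 1 and 9.22 on Tg-Sirt1 2, and the thioredoxin reductase gene Txnrd2 8.85, 8.58, 8.85 and 8.36. Idh2, the NADP isocitrate dehydrogenase, read 13.18 on NTg 1, 13.07 on NTg 2, 13.16 on Tg-Sirt1 1 and 12.87 on Tg-Sirt1 2, and the peroxiredoxin gene Prdx3 11.62, 11.62, 11.61 and 11.60. Of 7 genes measured, 0 passed the test between the labels. On NTg 2, 6 were lower and 0 higher than on NTg 1, beside 50.2% lower over all genes. That count did not survive rescaling, since a second quantile normalization gave 4 higher and 3 lower.

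By the brightest probe set of each gene, the consuming route, Parp1 and Parp2, was lowest on NTg 2, though not at every Parp1 probe set. Both enzymes bind DNA strand breaks and build poly-ADP-ribose chains from NAD. Parp2, by its only probe set 1417800_at, read 8.90 on NTg 1, 8.51 on NTg 2, 8.90 on Tg-Sirt1 1 and 9.02 on Tg-Sirt1 2. NTg 2 stood below the rest, and NTg 1 and Tg-Sirt1 1 had the same value. The mean was 8.71 ± 0.28 (SD, n = 2) in NTg and 8.96 ± 0.08 (SD, n = 2) in Tg-Sirt1. The log2 fold change was 0.26 ± 0.18 (SE), with a 95% confidence interval from -0.20 to 0.71. It was 0.06 without NTg 2 and 0.45 without NTg 1.

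Parp1 had 3 bright probe sets, and they did not agree on the order of the arrays. Probe set 1422502_at read 9.08 on NTg 1, 8.43 on NTg 2, 9.07 on Tg-Sirt1 1 and 8.72 on Tg-Sirt1 2, and 1422503_s_at read 8.88, 8.50, 8.87 and 9.0. NTg 2 was lowest at both, by 0.65 and 0.38 against NTg 1. Probe set 1435368_a_at instead read 8.45, 8.75, 8.44 and 8.92, with NTg 2 above NTg 1 by 0.30. The dim 1443573_at read 4.22 to 4.39. The log2 fold changes were 0.14 ± 0.26 (SE), 0.24 ± 0.18 (SE), 0.08 ± 0.22 (SE) and 0.04 ± 0.14 (SE). That of 1422502_at was -0.18 without NTg 2 and -0.04 without Tg-Sirt1 1. The profile of 1422503_s_at was close to that of Parp2, with differences between the NTg arrays of -0.38 and -0.39 and between the Tg-Sirt1 arrays of 0.13 and 0.12.

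DNA damage and p53-regulated genes were set beside these values, since breaks in DNA activate both enzymes. Cdkn1a, the cell cycle inhibitor p21, read 8.64 on NTg 1, 9.97 on NTg 2, 8.52 on Tg-Sirt1 1 and 8.41 on Tg-Sirt1 2. Mdm2, the ligase that degrades p53, read 9.47, 8.93, 9.47 and 9.19. The first was thus highest and the second lowest on NTg 2. Of 10 genes measured, 0 passed the test between the labels. On NTg 2, 8 were higher and 2 lower than on NTg 1 (median 0.07), or 5 and 5 after centring. Over all genes, 50.2% were lower there before centring.

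By route, the deviation from the mean of the 4 arrays had a different pattern in each. On NTg 2 the mean deviation was -0.36 log2 units in the consuming route (-0.39 for Parp1 and -0.32 for Parp2), 0.21 for Qprt, 0.07 in the salvage route and -0.06 in the NADP group. On Tg-Sirt1 2 it was 0.04 in the consuming route, -0.12 for Qprt, 0.12 in the NADP group and -0.12 in the salvage route. The salvage mean on Tg-Sirt1 2 hides opposite genes, from -0.92 for Nmnat1 to 0.29 for Nmnat3. It became 0.14 when _s_at and _x_at probe sets were left out. When each gene was averaged over its probe sets, the consuming value on NTg 2 was -0.24, and after a second quantile normalization it was -0.22. NTg 1 and Tg-Sirt1 1 deviated by 0.16 each in the consuming route, and by 0.00 and 0.05 in the salvage route. Over these representative probe sets, signal ran from 6.44 to 11.43 in the salvage route, 5.94 to 6.28 for Qprt, 9.58 to 12.96 in the NADP group and 8.43 to 9.08 in the consuming route. Different probe sets bind with different strength, so these ranges describe brightness and not amounts of RNA.

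**Figure D3:**
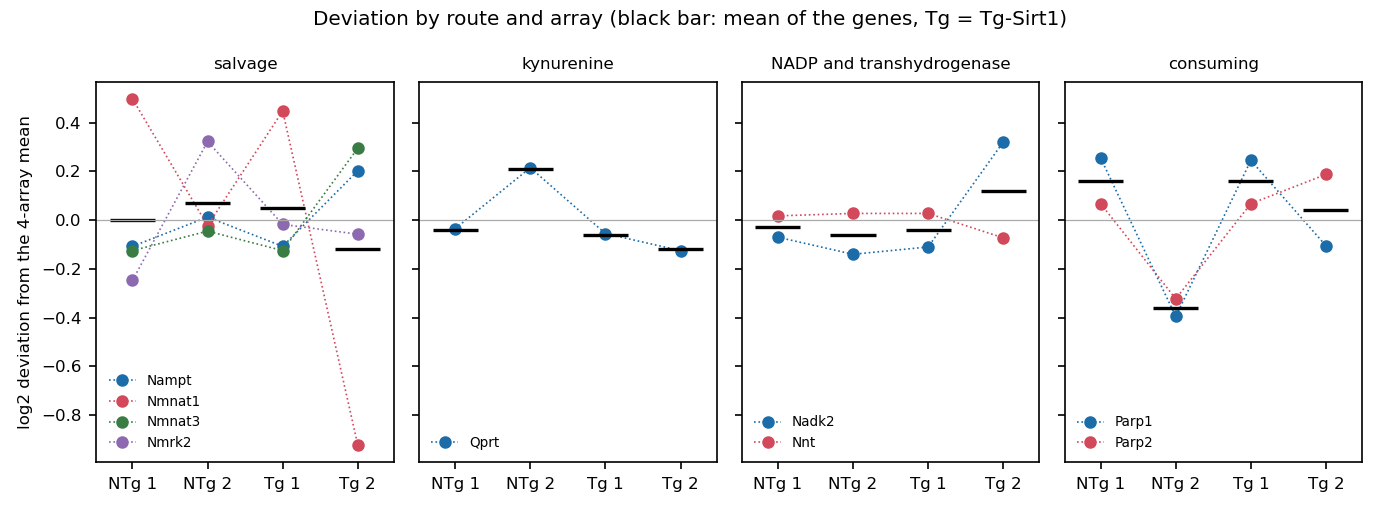
Log2 deviation of each member gene's brightest probe set from its mean over the 4 arrays (y axis), by array (x axis) and route (panels), with black bars for the mean of the genes in a route. Parp1 and Parp2 lie below 0 on NTg 2, and Nmnat1 lies far below the other salvage genes on Tg-Sirt1 2.

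The other ADP-ribosyl polymerases are described as a family, a grouping within the consuming list that was made after the values had been seen. Of 12 measured beside Parp1 and Parp2, 0 passed the test between the labels, and 11 had a higher and 0 a lower Tg-Sirt1 mean (median 0.22, beside 53.1% higher and a median of 0.01 over all genes). On NTg 2, 10 were lower and 2 higher than on NTg 1, with a median of -0.34, beside 50.2% lower and a median of -0.01 over all genes. On Tg-Sirt1 2, 12 of 12 were higher than on Tg-Sirt1 1 with a median of 0.21, beside 57.4% higher and a median of 0.04 over all genes. Because NTg 1 and Tg-Sirt1 1 were near-identical, the count by label largely follows from these array counts. It is not a separate observation. The Gapdh 3' minus 5' signal was 1.34 on Tg-Sirt1 2 and 0.19 on Tg-Sirt1 1, and its part in these values was not tested. The first of these array counts was 9 lower and 3 higher after a second quantile normalization, and the other was 12 of 12 under both scalings tried. These counts take the brightest probe set of each gene, and over all 27 probe sets of the family 15 had a higher and 10 a lower Tg-Sirt1 mean, 16 were lower on NTg 2 and 20 were higher on Tg-Sirt1 2. Among all probe sets with 1 symbol, 48.4% had a higher Tg-Sirt1 mean, 49.5% were lower on NTg 2 and 52.3% were higher on Tg-Sirt1 2.

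Among its members, Parp12, an interferon-induced mono-ADP-ribosyl transferase, read 7.97 on NTg 1, 7.30 on NTg 2, 7.96 on Tg-Sirt1 1 and 8.23 on Tg-Sirt1 2. Parp16, an enzyme of the endoplasmic reticulum membrane, read 5.68, 5.06, 5.64 and 6.30. Parp4, the vault particle member, read 8.44, 7.87, 8.41 and 8.75. Each was lowest on NTg 2 and highest on Tg-Sirt1 2. A dimmer Parp4 probe set read 7.37, 7.10, 7.34 and 6.59, and so was lowest on Tg-Sirt1 2.

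Parg, the hydrolase that removes poly-ADP-ribose, went the other way on Tg-Sirt1 2. It read 8.09 on NTg 1, 7.77 on NTg 2, 8.16 on Tg-Sirt1 1 and 6.68 on Tg-Sirt1 2, a drop of 1.48 between the Tg-Sirt1 arrays (log2 fold change -0.51 ± 0.49, SE). Like the Nmnat1 value, it stood on the array with the largest 3' minus 5' signal, whose part in it was not tested. Sirt3, the main mitochondrial sirtuin, read 10.12, 9.82, 10.09 and 10.08 in that order. Sirt1 was high on Tg-Sirt1 2 alone, the array on which the bright Nampt, Nmnat3 and Nadk2 probe sets also had their highest values. The same array alone held the lowest value of 5 member probe sets, of Nmnat1, Qprt and Nnt. Among all probe sets it alone was highest at 30.1% and lowest at 29.2%. A link of any member to Sirt1 was not tested.

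Among 9 genes that clear nicotinamide or move and turn over NAD, the 4 of widest range were Nudt12, Nqo1, Aox1 and Slc12a8. Nudt12, a peroxisomal NADH hydrolase, read 8.18 on NTg 1, 7.99 on NTg 2, 8.09 on Tg-Sirt1 1 and 8.91 on Tg-Sirt1 2. Nqo1, a quinone reductase that uses NADH or NADPH, read 8.28, 9.14, 8.26 and 8.77. Aox1, an aldehyde oxidase that acts on methylated nicotinamide, read 9.32, 10.05, 9.29 and 9.69, and Slc12a8, a proposed transporter of nicotinamide mononucleotide, 6.21, 6.93, 6.25 and 6.90. Nqo1, Aox1 and Slc12a8 were thus higher on both NTg 2 and Tg-Sirt1 2 than on the near-identical pair, so that their labels overlapped. Nnmt, which methylates nicotinamide, read 7.31 to 7.37. Of the 9, 0 passed the test between the labels, and 3 differed by over 0.5 between the NTg arrays and 3 between the Tg-Sirt1 arrays, against 12.6% and 6.57% of all genes. Of the 7 other salvage and nicotinic acid genes, 0 passed the test between the labels. On NTg 2, 6 were lower than on NTg 1, beside 50.2% lower over all genes. Pnp, the nucleoside phosphorylase, was higher there (9.96 against 9.30).

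**Figure D4:**
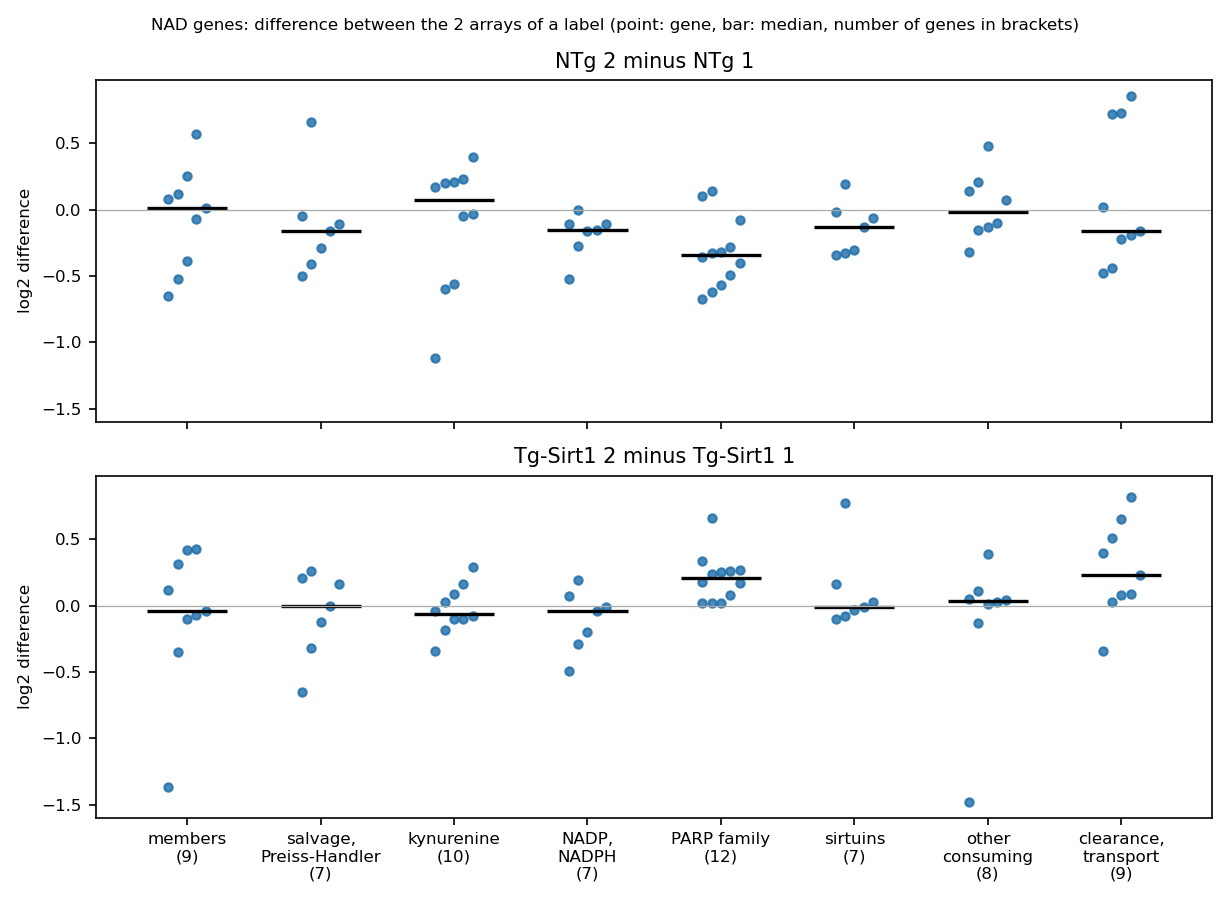
Log2 difference (y axis) between NTg 2 and NTg 1 (upper panel) and between Tg-Sirt1 2 and Tg-Sirt1 1 (lower panel) for the members and for groups of other NAD genes (x axis, number of genes in brackets), with a point for each gene and a bar for the median. The 12 genes of the PARP family have a median of -0.34 in the upper and 0.21 in the lower panel.

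RNA of other cell types moved with the same arrays and is given beside the members. In bulk heart RNA, fewer cells of a type and less RNA per cell cannot be told apart. Fibroblast markers were lower on NTg 2 than on NTg 1 at 8 of 8 genes (median -0.99), and their summed signal was 14.67 on NTg 1, 13.80 on NTg 2, 14.67 on Tg-Sirt1 1 and 14.24 on Tg-Sirt1 2. Smooth muscle and pericyte markers were lower on NTg 2 at 7 of 7 (median -0.13, summed 13.57 to 14.21). Endothelial markers were lower there at 7 of 8 (median -0.39, summed 12.13 to 12.52). Over all genes, 50.2% were lower on NTg 2 than on NTg 1, with a median of -0.01. Macrophage markers were lower there at 7 of 8 (12.06 to 12.49) and neutrophil markers higher at 8 of 8 (9.72 to 10.41). The summed signal was 8.83 to 9.0 for B cell, 9.02 to 9.23 for T cell, 8.40 to 9.02 for adipocyte and 9.30 to 9.34 for lung, thymus and mesothelium markers. Heart muscle markers were lower on NTg 2 at 8 of 8 with a median of -0.08 (summed 16.68 to 16.82), but at 3 of 8 after a second quantile normalization, which also left 2 of 7 smooth muscle and 5 of 8 endothelial markers lower. Tg-Sirt1 2 was also lower than Tg-Sirt1 1 at 7 of 8 fibroblast (median -0.44), 6 of 7 smooth muscle (median -0.29), 6 of 8 endothelial (median -0.19), 6 of 8 macrophage (median -0.20) and 7 of 8 heart muscle markers (median -0.15). Of all genes, 40.6% were lower on Tg-Sirt1 2 than on Tg-Sirt1 1, with a median of 0.04. The part of these cell types in the low NTg 2 values of Parp2 and of Parp1 probe sets 1422502_at and 1422503_s_at was not tested. Their part in the high Nampt, Nadk2 and PARP family values on Tg-Sirt1 2 was not tested either.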

How the data were processed

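Values came from the deposited series table, on the log2 scale with 1 value per probe set and array. RMA and Affymetrix Expression Console made them, per the submitters' processing notes, without versions. RMA background-corrects, quantile normalizes and summarises probes, which removes differences in total RNA and damps those of dim probe sets. Detection calls were not given, so the signal over background is unknown. Precision is limited by having 4 arrays.

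Of 45101 probe sets, 64 controls were left out. The platform annotation paired 34945 of the rest with 1 symbol, 932 with several and 9160 with none. Entrez identifiers of 34741 matched the RefSeq table of GRCm38.p6, and 0 symbols changed. The probe set of highest mean stood for a gene in lists and routes.

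Tg-Sirt1 was compared with NTg in limma 3.58.1 (R 4.3.3; lmFit, eBayes, residual df 2, prior df 3.10) across all 45037 probe sets, two-sided, with Benjamini-Hochberg adjustment. The fit was also run on simulated data of separate arrays, without a near-identical pair. That run does not show which changes the test could call in the real arrays. Differences of single arrays over 0.5 log2 units were described without a test. Members, lists and alternatives were chosen with earlier results of these data known. All member probe sets were named, with the 10 other NAD genes of widest range, Sirt1, Sirt3, 4 load, 3 clock and 2 DNA damage genes and the 3 genes of closest profile. Other genes named were chosen after their values were seen. Protein sequences were not used here.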

Additional observations from a re-analysis of the deposited data

How the results depend on the processing

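In limma, 0 member probe sets passed under any of the 12 alternatives fitted (lowest adjusted p 0.508), including the replicate block, with 0 called and a median log2 fold change of 0.10. The labels share numbers but no stated pairing (same-numbered arrays' deviations correlated at 0.293, with 1 array of each label near-identical), so the block is not read as a design. The median over member genes, 0.10, was not stable. It was -0.04 to 0.06 with an array left out, -0.03 or 0.04 with the near-identical arrays averaged and counted once as NTg or as Tg-Sirt1, 0.12 without dim probe sets, 0.01 after a second quantile normalization, 0.13 after centring and 0.05 when each gene was averaged over its probe sets. The other settings moved it by less than 0.021. That is the pooled SD, between arrays of a label, of the members' median deviation from each gene's mean over the arrays.

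Leaving out arrays gave log2 fold changes of -0.06 to 0.25 for Nampt, -1.16 to 0.21 for Nmnat1, -0.04 to 0.38 for Nmnat3, -0.36 to 0.21 for Nmrk2, -0.30 to -0.06 for Qprt, -0.01 to 0.42 for Nadk2, -0.10 to 0.01 for Nnt, -0.18 to 0.47 for Parp1 and 0.06 to 0.45 for Parp2. Nmnat1 was 0.03 without _x_at and _s_at probe sets, and Parp1 -0.03 with the near-identical arrays counted once as NTg. Over all settings and genes, 115 alternative values had the sign of the reported one or were 0, and 10 were reversed. Some settings, such as the replicate block and the robust prior, leave the fold change as it was and could not reverse it. With an array left out, every gene but Qprt and Parp2 had a reversed value, so the larger count does not show stable signs. After centring, 7 rather than 3 member probe sets differed by over 0.5 between Tg-Sirt1 2 and NTg 2 (16.2% of all), and 2 rather than 1 between Tg-Sirt1 1 and NTg 2 (12.0% of all). The salvage mean on Tg-Sirt1 2 was -0.02 over all probe sets and 0.14 without _x_at and _s_at probe sets, and the NADP mean on NTg 2 was 0.07 after a second quantile normalization. The other 29 route values moved by less than the SD between arrays of a label in their own route, which was 0.09 for salvage, 0.13 for Qprt, 0.08 for the NADP group and 0.27 for the consuming route. Among them, the consuming mean on NTg 2 was -0.22 after a second quantile normalization. The SD of 0.27 comes mostly from the low NTg 2 value itself, so a move smaller than it does not show that this value is stable. The route alternatives were chosen after seeing the data. Dim probe sets, such as those of Qprt, limit what is shown for them.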
